A study of Mus musculus with 20 samples.

Results

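Day and night were compared in the left ventricle of GRflox mice, as 5 libraries taken at ZT12, when the lights go off, against 5 taken at ZT0, when the lights go on. They are 10 of the 20 libraries of the series, chosen by the genotype and time in their labels. All animals were male C57BL/6 mice of about 9 to 13 weeks, and RNA was taken from left ventricular free wall after perfusion of the heart with Tyrode solution. GRflox mice are GRfl/fl, meaning that both alleles of the glucocorticoid receptor gene Nr3c1 are floxed, and carry no Cre. The other 10 libraries come from CardioGRKO littermates (GRfl/fl alphaMHCCre/+) at the same times, in which Cre is driven by the cardiomyocyte promoter alphaMHC. Every group thus shares the floxed alleles, and no group has unmodified Nr3c1. With only ZT0 and ZT12 sampled, a difference between them says which time was higher and nothing of when in the cycle a gene peaks. The labels do not say that each library is a separate animal, so the p-values measure the spread between these libraries.

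As background, the circadian clock of each cell is a loop of transcription factors. BMAL1 (gene Arntl) pairs with CLOCK or NPAS2, binds E-box sequences and switches on the Per and Cry genes, whose proteins then shut their own activators down. A second loop joins it: the REV-ERB repressors (Nr1d1, Nr1d2) and the ROR activators compete for the same element in Arntl. The output factors DBP, TEF and HLF and their opponent NFIL3 compete for D-boxes. In rodents, which are active at night, blood corticosterone also rises towards lights off, and it acts through the receptor that Nr3c1 encodes.

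The GRflox libraries held 14185219 to 35221101 counted reads (median 22470393), and 14007 genes passed the filter on low counts. Levels are given as CPM, counts scaled to a common library size, so a level can be compared between libraries and not between genes of different length. An error after a mean level is the SD over 5 libraries, and after a log2 fold change the SE. Principal components were computed only on the genes that varied most over the 10 libraries, so their shares are of the variance of those genes. The first, with 36.9%, put the 5 ZT0 libraries at -18.07 to -8.91 and the 5 ZT12 libraries at 10.64 to 15.62. On the second (15.5%), replicate 5 of ZT12 stood apart, at 21.21. The tissue's markers were those of ventricular muscle: the 13 cardiomyocyte markers summed to 134300 to 139500 CPM at ZT0 and 139900 to 143900 at ZT12, whereas 7 atrial markers summed to 78.1 to 218.1 and 96.2 to 286.0. The floxed gene itself did not pass the test: Nr3c1 stood at 105.9 to 122.5 CPM at ZT0 and 95.3 to 117.5 at ZT12 (log2 fold change -0.10 ± 0.06 SE, adjusted p 0.256). In CardioGRKO it stood at 51.9 to 61.1 and 46.8 to 55.9. Because the tissue is a mixture, a change in the number of cells of a type and in the RNA of each cell cannot be told apart for any gene below.

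Nearly the whole clock differed between the times, and the activators and repressors went opposite ways. Of 21 clock genes tested, 17 passed the test (edgeR, Benjamini-Hochberg adjusted p under 0.05), and in all 17 the 5 ZT0 libraries did not overlap the 5 ZT12 libraries. Over all 14007 genes, 17.3% were called and 12.5% had no overlap.

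Among the activators Arntl (chr7:113178471-113314126 in GRCm38) fell the most of any gene named here. Its 5 ZT0 libraries read 52.4, 59.5, 57.5, 55.5 and 63.0 CPM, and its ZT12 libraries 2.01, 1.84, 2.03, 1.95 and 1.05 CPM. The lowest morning value lies far above the highest evening value, a log2 fold change of -4.98 ± 0.16 (31.6-fold, adjusted p 2.88e-16). Npas2, which can stand in for CLOCK, went from 17.8, 18.4, 15.6, 20.2 and 21.2 CPM to 3.63, 4.90, 3.24, 2.47 and 3.14 CPM (log2 fold change -2.40 ± 0.19). Clock itself moved less, from 107 ± 3.7 to 47.2 ± 1.5 CPM (log2 fold change -1.18 ± 0.06), with libraries between 102.3 and 111.2 CPM and then between 45.9 and 49.6. The paralog Arntl2 was low at both times, 1.96 ± 0.30 and 1.96 ± 0.32 CPM, and did not pass the test.

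The repressors were high where the activators were low. Per2 read 10.8, 9.404, 18.2, 6.35 and 7.04 CPM at ZT0 and 100.6, 78.4, 94.4, 110.9 and 98.7 CPM at ZT12, a 9.12-fold rise (log2 3.19 ± 0.24). Per3 rose from 8.58 ± 0.73 to 63.3 ± 7.5 CPM (log2 2.89 ± 0.12), with all morning libraries within 7.47 to 9.28. Ciart, a repressor of CLOCK and BMAL1 also called CHRONO, rose from 2.35 ± 0.58 to 20.8 ± 4.1 CPM (log2 3.14 ± 0.17). Per1 rose as well, but its morning libraries were scattered: 31.0, 71.3, 95.0, 30.1 and 102.8 CPM, against 177, 200, 169, 179 and 221 CPM at ZT12 (2.82-fold, adjusted p 0.000284). Replicates 1 and 4 of ZT0 gave the low values, and even the high ones stayed below every ZT12 library. Of the cryptochromes, Cry2 rose from 35.6 ± 3.3 to 65.9 ± 4.1 CPM (log2 0.89 ± 0.07), whereas Cry1 stood at 16.9 to 21.9 and 14.2 to 17.3 CPM, overlapping, with a log2 fold change of -0.23 ± 0.09 (adjusted p 0.0896).

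In the second loop 1 of the 2 REV-ERB genes passed the test. Nr1d2 read 44.7, 54.6, 39.0, 46.8 and 58.0 CPM at ZT0 and 168.5, 191.7, 169.7, 166.5 and 192.0 CPM at ZT12 (log2 1.87 ± 0.09). Nr1d1 overlapped, at 76.8 to 135.4 against 110.6 to 137.5 CPM, and fell just short of the threshold (log2 0.34 ± 0.12, adjusted p 0.0516). It passed in 5 of the alternatives tried, among them the fit without replicate 2 of ZT0, its highest morning library (log2 0.46, adjusted p 0.00595). Its 3′ end overlaps that of Thra, the thyroid hormone receptor alpha gene, on the other strand (Nr1d1 chr11:98767932-98775377, Thra chr11:98740776-98769006), and whether the counting used strand is not given. Thra fell from 142 ± 14.4 to 90.73 ± 10.47 CPM (log2 -0.65 ± 0.09). Of the ROR activators, Rora rose (log2 0.40 ± 0.07) and Rorb, near 1 CPM at both times, did not pass. The DEC repressors Bhlhe40 (log2 0.63 ± 0.12) and Bhlhe41 (log2 0.70 ± 0.10) both rose.

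The clock's output factors gave the largest rise of all. Dbp (chr7:45705100-45710203) read 8.77, 10.4, 8.97, 10.3 and 9.65 CPM at ZT0 and 167.6, 208.2, 196.0, 213.2 and 205.9 CPM at ZT12, 20.7-fold higher (log2 4.37 ± 0.12, adjusted p 2.11e-17). Its relatives Tef (83.6 ± 4.8 to 281 ± 18 CPM, log2 1.75 ± 0.08) and Hlf (37.7 ± 1.5 to 101 ± 16 CPM, log2 1.42 ± 0.12) rose with it. Nfil3, the repressor that competes with them, fell from 27.8, 27.4, 40.1, 25.9 and 22.1 CPM to 10.3, 10.7, 13.7, 10.99 and 8.10 CPM (log2 -1.40 ± 0.14). Of 11 kinases, ligases and other regulators that tune the clock proteins, 3 rose (27.3%, against 8.13% of all genes) and 1 fell (9.1%, against 9.17%). The deubiquitinase gene Usp2 rose from 147 ± 12.4 to 323 ± 26.6 CPM (log2 1.13 ± 0.08), and the cold-inducible Cirbp rose by 0.57 ± 0.10 on the log2 scale. The third, the kinase gene Csnk1e (log2 0.21 ± 0.07), lost its call without any one of replicates 1, 2, 3 or 5 of ZT0 or 2, 3 or 5 of ZT12.

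**Figure D1:**
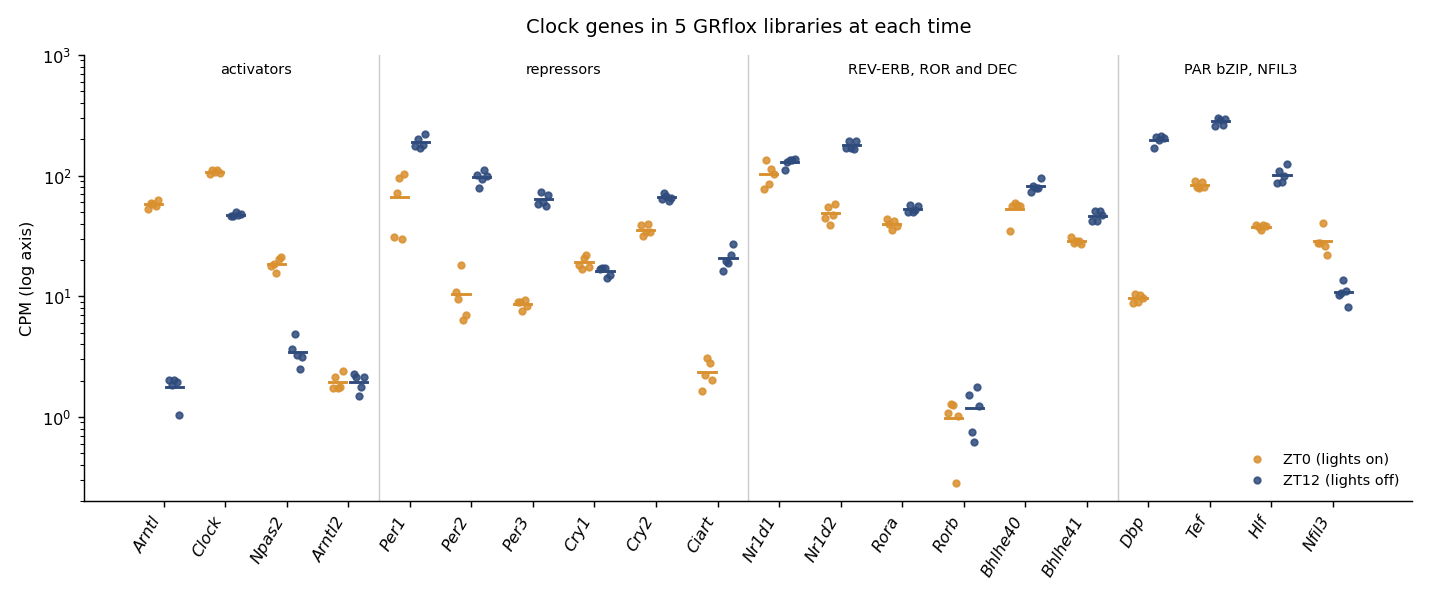
CPM of 20 clock genes on a log axis, 1 point per GRflox library (orange ZT0, blue ZT12, 5 each) and a bar at the mean, grouped by role. The points of Arntl, Dbp, Per2 and Per3 lie far apart, those of Cry1, Nr1d1, Rorb and Arntl2 overlap, and the morning points of Per1 are spread from 30.1 to 102.8.

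Promoter sequence shows which of these genes carry the clock's binding letters close to their start. The stretches below were read from RefSeq promoters of GRCm38.p6 within 250 bases before an annotated start. They run 5′ to 3′ on the strand of the gene, with the motif in capitals and up to 20 bases on either side. They are shown because these genes account for most of the motif matches in the clock: 5 of the 18 clock genes with a promoter in the table hold the E-box CACGTG, which reads the same on both strands. Of these 5, 4 rose at ZT12 and Cry1 did not pass the test. Ptgds, which makes prostaglandin D2, and Leo1 lie outside the clock and are shown as genes at least 2-fold higher and lower that hold the 2 other motifs.
Ciart, E-box, chr3:95882319-95882364: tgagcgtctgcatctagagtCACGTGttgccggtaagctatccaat
Ciart, E-boxes, chr3:95882247-95882306: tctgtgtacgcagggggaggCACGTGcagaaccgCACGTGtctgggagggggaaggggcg
Per1, E-box, chr11:69098763-69098808: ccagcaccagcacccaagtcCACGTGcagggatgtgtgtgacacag
Tef, E-box of one start, chr15:81802526-81802571: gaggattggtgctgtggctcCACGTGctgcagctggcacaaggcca
Tef, E-box of another start, chr15:81811256-81811301: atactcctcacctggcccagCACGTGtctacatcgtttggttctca
Bhlhe41, E-box, chr6:145865548-145865593: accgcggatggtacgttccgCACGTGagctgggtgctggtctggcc
Cry1, E-box, chr10:85185089-85185134: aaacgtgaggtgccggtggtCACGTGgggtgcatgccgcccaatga
Per3, D-boxes, chr4:151044796-151044890: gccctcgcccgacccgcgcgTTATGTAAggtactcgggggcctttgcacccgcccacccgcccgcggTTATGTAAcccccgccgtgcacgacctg
Ptgds, D-box, chr2:25469863-25469910: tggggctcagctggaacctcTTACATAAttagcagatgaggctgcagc
Nfil3, ROR/REV-ERB element, chr13:52981040-52981071: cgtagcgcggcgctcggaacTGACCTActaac
Leo1, ROR/REV-ERB element, chr9:75441441-75441487: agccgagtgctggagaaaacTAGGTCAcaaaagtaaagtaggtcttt

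Ciart holds 3 E-boxes and Per3 the D-box TTATGTAA at 2 places, on the sense strand; in Ptgds the D-box lies on the other strand. TAGGTCA, the element shared by ROR and REV-ERB proteins, lies on the sense strand of Leo1 and on the other strand of Nfil3, both of which fell. The motifs shown do not overlap one another. Matches were counted on both strands over the 11083 tested genes that had a promoter. E-boxes were held by 9.72% of them, by 11.7% of the genes called higher at ZT12, by 8.79% of those called lower, and by 15.2% (12 of 79) of those called and at least 2-fold higher. The D-box was held by 0.605% of all, by 4 of 79 (5.06%) of the genes at least 2-fold higher (Per3, Ptgds, Coq10b and A530013C23Rik) and by 0 of 58 at least 2-fold lower. TAGGTCA was held by 1.96% of all, by 5 of 58 (8.62%) of the genes at least 2-fold lower and by 1 of 79 (1.27%) of those at least 2-fold higher. Over all 32851 promoter windows in the table, the 3 motifs were held by 6.02%, 0.819% and 2.23%. The cAMP element TGACGTCA (2.91% of tested genes) and the steroid receptor repeat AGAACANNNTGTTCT (1 gene, 0.00902%) were searched in the same way. TGACGTCA was held by 2.21% of the genes called higher and 3.74% of those called lower. Of the genes at least 2-fold higher 1.27% held it, and of those at least 2-fold lower 5.17%. These are descriptions of letters in a short window; no binding was measured, and the Per2 and Bhlhe40 promoters were not in the table.

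Over all 14007 genes, clock genes included, 2423 were called, 1139 higher (8.13%) and 1284 lower (9.17%) at ZT12, and most differences were small. The median size of a called change was 1.26-fold and for 77.8% of the called the change was under 1.5-fold. Only 102 genes were at least 2-fold higher and 82 at least 2-fold lower, and 12 and 14 reached 4-fold. The share called went up with expression, from 8.3% of the 3502 genes with a mean of up to 4.604 CPM to 24.1% of the 3502 genes above 50.65 CPM. By size it was the reverse, since 92 of the called changes of 2-fold or more were in the first of these sets and 33 in the last. The median log2 fold change of all genes was 0.008. No overlap was seen for 830 genes higher and 920 lower. Without replicate 5 of ZT12, the library that stood apart, 973 genes were called higher and 1100 lower.

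**Figure D2:**
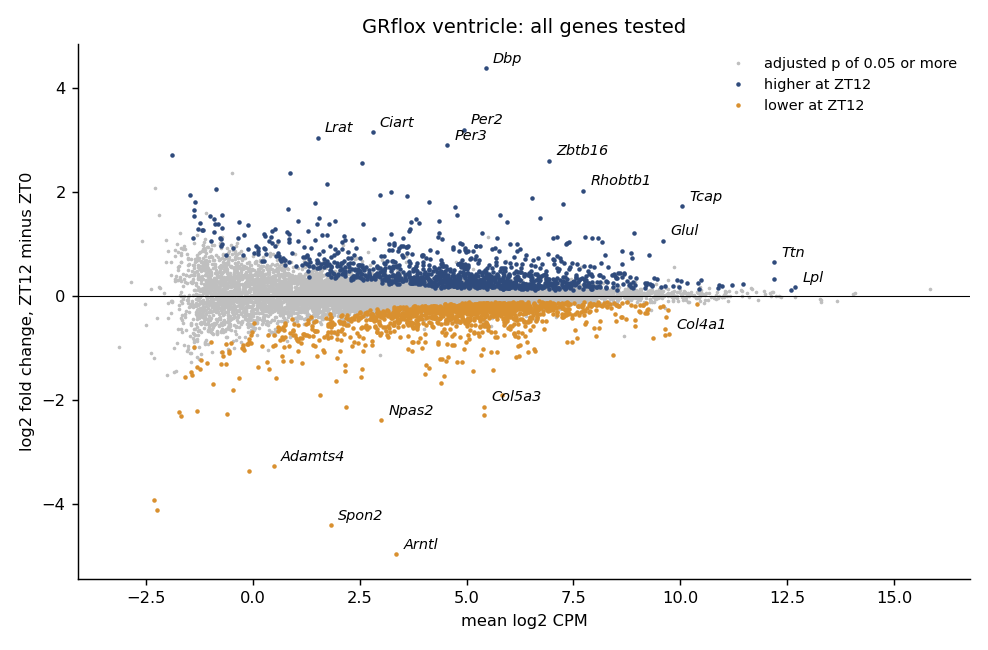
Log2 fold change (ZT12 minus ZT0) against mean log2 CPM over the 10 GRflox libraries for the 14007 genes tested; blue and orange points passed the test as higher or lower. The clock genes Dbp and Arntl take the extremes, abundant muscle genes such as Tcap and Ttn stand out on the right, and most called genes lie within 1.5-fold of no change.

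The 15 largest rises were 5 of clock genes and 10 of other genes of varied function. After Dbp, Per2 and Ciart came Lrat, which stores vitamin A as retinyl esters: 0.510, 0.541, 1.57, 1.28 and 1.21 CPM at ZT0 against 5.99, 4.23, 10.8, 9.17 and 12.7 CPM at ZT12 (8.18-fold, log2 3.03 ± 0.36). Adh1, which oxidizes retinol, rose from 9.35 ± 2.59 to 33.5 ± 6.62 CPM (log2 1.81 ± 0.19). Zbtb16, a zinc finger factor strongly induced by glucocorticoids, read 69.5, 43.4, 48.5, 53.8 and 36.0 CPM and then 287, 260, 347, 298 and 310 CPM, 6.02-fold higher. The metallothionein gene Mt2 rose 5.83-fold, but unevenly, from 1.499 to 4.89 CPM at ZT0 to 6.03 to 32.2 at ZT12; it and its near copy Mt1 can share reads. Rhobtb1, an adaptor of the cullin ligases, rose from 106 ± 10.6 to 428 ± 39.1 CPM (log2 2.02 ± 0.12), which gave it the highest CPM of the 15. The rest of the 15 were Per3, Nr1d2, Chac1, Cys1, Angptl7, Fam107a and Hif3a, each 3.43-fold to 7.43-fold higher with no overlap. Angptl7 was scattered at ZT12, between 7.51 CPM in replicate 5 and 21.6 in replicate 1.

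The largest falls included secreted and matrix proteins. Spon2, a secreted matrix protein (chr5:33213518-33218254), read 12.5, 17.8, 15.1, 18.6 and 14.6 CPM at ZT0 and 0.906, 0.879, 0.589, 0.780 and 0.522 CPM at ZT12, 21.3-fold lower (log2 -4.41 ± 0.20). Outside the clock lists no other called gene fell by as much, from a moderate level to below 1 CPM in every library. The magnesium transporter gene Slc41a3 fell from 95.1 ± 10.6 to 19.3 ± 1.39 CPM (log2 -2.29 ± 0.14). Col5a3, a chain of type V collagen, fell from 82.1, 100.6, 86.5, 87.1 and 92.5 CPM to 18.7, 25.1, 16.8, 19.6 and 22.1 CPM (log2 -2.14 ± 0.10). Adam19, a membrane protease, fell from 112 ± 18.3 to 29.5 ± 8.61 CPM, and Leo1, a subunit of the PAF1 transcription elongation complex, from 35.7 to 40.2 CPM to 11.9 to 13.5 CPM. The cell cycle inhibitor Cdkn1a fell from 36.9, 58.7, 94.1, 35.7 and 84.1 CPM to 19.6, 15.6, 33.8, 26.5 and 17.8 CPM (log2 -1.45 ± 0.26), with the same 2 morning libraries low as for Per1. Tmem171, Prdm1, Colq, Foxs1, Clmp, Lingo3 and Ccnjl completed the 15 with Arntl and Npas2, at 2.73-fold to 4.45-fold lower for these 7.

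Genes known to be induced by glucocorticoids were mostly higher at ZT12. Of 31 listed, 30 were tested, 19 rose and 2 fell (63.3% higher against 8.13% of all genes), with a median log2 fold change of 0.70 against 0.008. Without the clock gene Per1 the count was 18 of 29. The list was chosen with earlier results of these data known, so these figures are a description. Besides Zbtb16, the regulatory PI3-kinase subunit gene Pik3r1 rose from 195.5, 187.7, 192.7, 177.0 and 170.2 CPM to 399.8, 309.4, 492.3, 390.5 and 388.9 CPM (log2 1.10 ± 0.09). Map3k6 (log2 1.44 ± 0.19), Pim3 (1.997-fold), Mt1 (log2 1.11 ± 0.15) and Hif3a (log2 1.78 ± 0.24) also rose without overlap. Fkbp5, the co-chaperone of the receptor and chosen here after its values were seen, rose from 15.2 ± 4.39 to 50.1 ± 19.2 CPM (log2 1.70 ± 0.24). The list did not move as a whole, and Cdkn1a, also on it, fell. In edgeR, Dusp1 stood at a log2 fold change of 0.02 (adjusted p 0.958) and Pdk4 at -0.79 (adjusted p 0.0875). Pdk4 was called lower by limma-voom (adjusted p 0.0491). It was also called lower in edgeR with the GRflox libraries alone (adjusted p 0.0457) and without replicate 5 of ZT12 (adjusted p 0.0218). Of 13 Kruppel-like factor genes, 6 rose (46.2%) and none fell, among them Klf15, a regulator of cardiac nutrient use, from 51.9 ± 10.8 to 103 ± 10.7 CPM (log2 0.99 ± 0.12), Klf9 (log2 0.60 ± 0.09) and Klf13 (log2 0.54 ± 0.08). Klf9 is on both lists. Without replicate 5 of ZT12 the counts were 18 and 6.

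**Figure D3:**
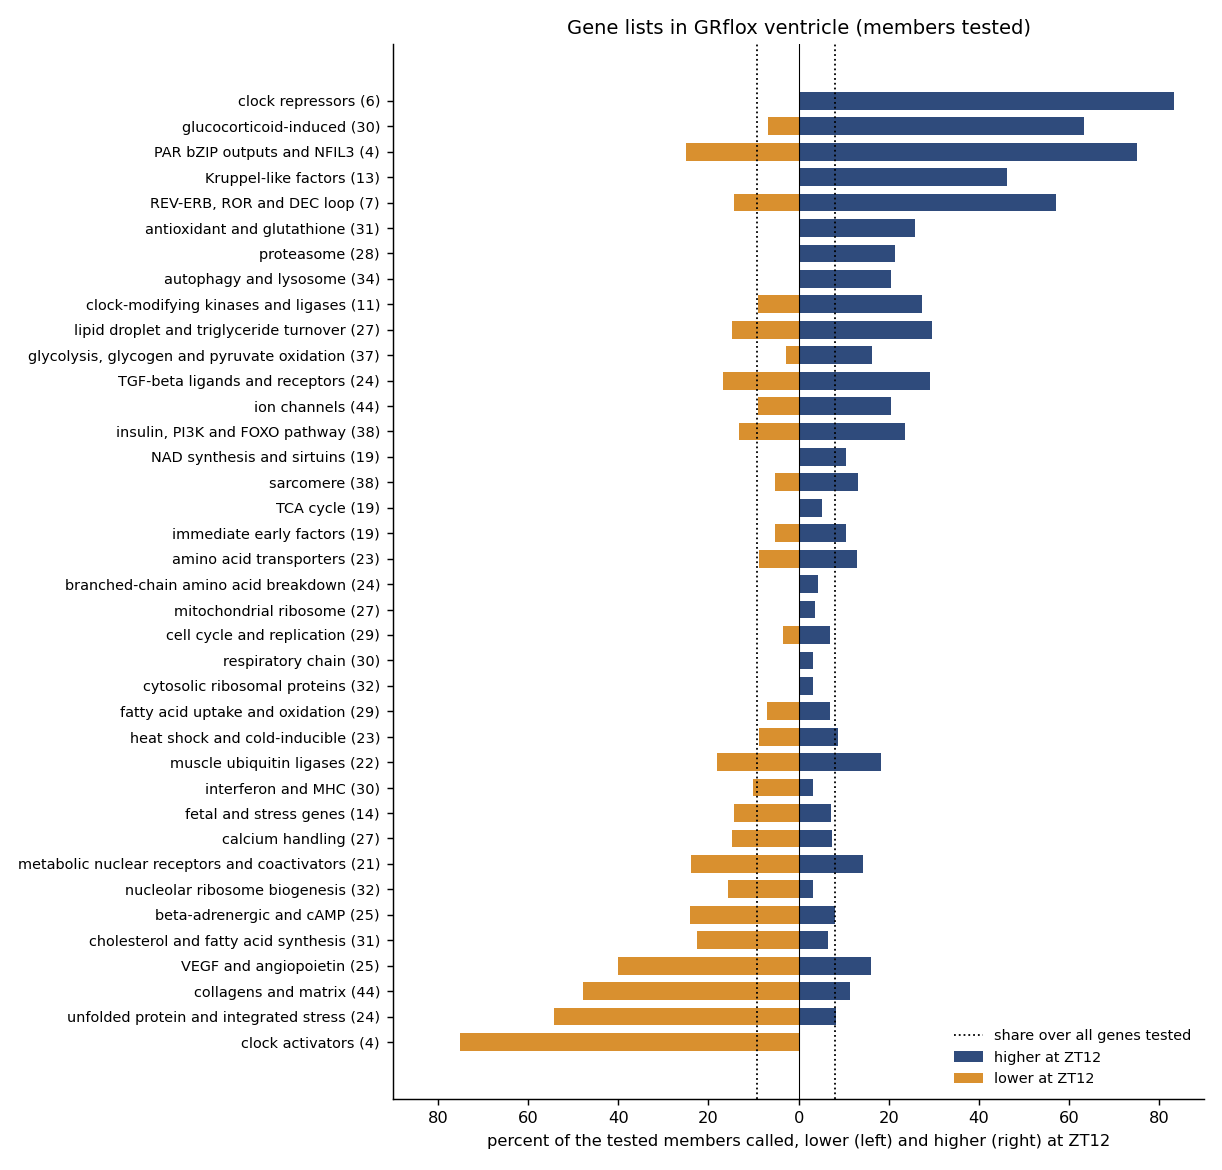
Share of the tested members of each gene list that were called higher (blue, right) or lower (orange, left) at ZT12, with the number tested in brackets; dotted lines mark 8.13% and 9.17%, the shares over all genes. The bars of clock repressors (83.3%) and glucocorticoid-induced genes (63.3%) reach far right, and those of clock activators (75.0%), the unfolded protein list (54.2%) and collagens (47.7%) far left.

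Genes of protein folding in the endoplasmic reticulum were lower at ZT12. The list of the unfolded protein and integrated stress responses had 24 members tested, of which 13 fell and 2 rose (54.2% lower against 9.17% of all genes; median log2 fold change -0.31). The chaperone gene Hspa5, which encodes BiP, read 538, 728, 696, 515 and 578 CPM at ZT0 and 482, 391, 373, 416 and 362 CPM at ZT12 (log2 -0.59 ± 0.09). Manf, a secreted stress factor, fell from 36.6, 57.7, 55.5, 34.4 and 38.5 CPM to 24.4, 22.1, 20.1, 23.9 and 19.5 CPM (log2 -1.03 ± 0.14). In both genes replicates 2 and 3 were the highest of the morning libraries, and every morning library was above every evening one. The chaperone gene Hyou1 fell by 0.72 ± 0.08 and Xbp1, the transcription factor of the pathway, by 0.56 ± 0.08 on the log2 scale. The exceptions were Herpud1, which serves the removal of misfolded proteins, and Chac1, which breaks down glutathione. Herpud1 rose from 196.6, 214.7, 226.2, 173.6 and 204.5 CPM to 373, 427, 469, 361 and 448 CPM (log2 1.03 ± 0.08). Chac1 rose from 1.65 ± 1.06 to 7.57 ± 1.97 CPM (log2 2.15 ± 0.29). The transcription factor genes Atf4 (log2 0.02, adjusted p 0.933) and Atf6 (log2 -0.09, adjusted p 0.173) did not pass the test. Without replicate 5 of ZT12 the list had 12 lower.

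Of 44 collagen and matrix genes tested, 21 fell (47.7%, against 9.17% of all genes), 5 rose (11.4%, against 8.13%) and 18 were not called, with a median log2 fold change of -0.22. The basement membrane collagen gene Col4a1, one of the called falls with the highest CPM, read 969, 1197, 1096, 1190 and 1073 CPM at ZT0 and 609, 616, 683, 739 and 644 CPM at ZT12 (log2 -0.75 ± 0.08). Fbn1, the fibrillin of elastic microfibrils, fell from 116 ± 11.8 to 62.8 ± 3.54 CPM, Col6a3 from 89.8 ± 6.01 to 53.6 ± 2.79 CPM, and the membrane metalloproteinase Mmp14 from 31.6 ± 4.61 to 13.6 ± 1.10 CPM. The aggrecanase Adamts4 fell from 4.10 ± 0.70 to 0.432 ± 0.237 CPM (9.75-fold), although at these levels each library rests on few reads. The inhibitor of metalloproteinases Timp3 went the other way, from 287, 311, 358, 279 and 356 CPM to 724, 708, 769, 710 and 749 CPM (log2 1.20 ± 0.07). Sparc (log2 -0.05) and Dcn (log2 0.11), abundant matrix genes of the same list, did not pass the test. Without replicate 5 of ZT12, 18 of the list were lower. Of 11 fibroblast markers, 2 fell (18.2%) and none rose; their summed level ran from 2526 to 2945 CPM at ZT0 and 2516 to 3093 at ZT12. The part of fibroblast number in the falls was not tested.

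Of 25 genes of the VEGF, angiopoietin and apelin systems, which act on endothelial cells, 10 fell (40%, against 9.17% of all genes), 4 rose (16.0%, against 8.13%) and 11 were not called (median log2 fold change -0.20). Kdr, the main VEGF receptor, read 357, 357, 317, 357 and 320 CPM at ZT0 and 177, 186, 184, 259 and 190 CPM at ZT12 (log2 -0.78 ± 0.10). Flt1, the receptor that traps VEGF, rose from 188, 202, 223, 176 and 186 CPM to 268, 248, 306, 271 and 266 CPM (log2 0.48 ± 0.06). The ligand gene Vegfa fell (log2 -0.41 ± 0.10), as did Nrp2, a co-receptor (log2 -0.47 ± 0.07), and Aplnr, the apelin receptor (log2 -1.08 ± 0.17). Of 13 endothelial markers, 6 fell (46.2%), 1, Flt1, rose and 6 were not called. Among those that fell, the tight junction gene Cldn5 changed by -0.92 ± 0.14 on the log2 scale, and Cdh5 and Pecam1 only by -0.19 ± 0.04 and -0.17 ± 0.04. The summed endothelial level was 2183 to 2248 CPM at ZT0 and 2005 to 2159 at ZT12, without overlap. Its mean went from 2217 to 2067 CPM, and the fall of Kdr, 1 of the 13 markers, was alone nearly as large. Flt1, in the same sum, rose. Whether the number of endothelial cells had a part in these falls was not tested. Of 11 macrophage markers 2 rose (18.2%, against 8.13% of all genes) and 1 fell (9.1%, against 9.17%). The fall was in the chemokine receptor gene Cx3cr1 (7.07 ± 0.94 to 2.73 ± 0.62 CPM). Of the 2 rises, that of Cd68 lost its call in 11 alternatives. None of 11 pericyte and smooth muscle markers was called (summed 4529 to 4902 and 4890 to 5184 CPM). Markers of lymphocytes and neutrophils summed to under 7 CPM in each library, and the 4 globin genes, like the glycolytic gene Eno1, had no count in any.

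Of 38 sarcomere genes tested, 5 rose (13.2%) and 2 fell (5.3%), shares close to the 8.13% and 9.17% of all genes, with the largest of these changes in Tcap and Ankrd23. Tcap (telethonin), which anchors titin at the Z-disc, read 577, 589, 499, 575 and 672 CPM at ZT0 and 1887, 1891, 2005, 1933 and 1880 CPM at ZT12, 3.30-fold higher (log2 1.72 ± 0.09). Ttn itself rose from 3689, 3777, 4681, 3218 and 3533 CPM to 5480, 5137, 5631, 5752 and 7549 CPM (log2 0.64 ± 0.12), with replicate 5 of ZT12 well above the others. Ankrd23, a titin-binding stress sensor, fell from 513 ± 39.6 to 233 ± 23.1 CPM (log2 -1.14 ± 0.13), and Nexn from 924 ± 44.4 to 758 ± 65.3 CPM. Myh6, the alpha myosin heavy chain and the one with the highest CPM, stood at 56060 ± 1952 and 61070 ± 898 CPM (edgeR, adjusted p 0.0603). It was called by DESeq2 (adjusted p 0.0252), by limma-voom (0.034), in the GRflox libraries alone (0.0202) and without replicate 3 of ZT0 (0.041). Of 14 fetal and stress response genes, 1 rose (7.1%), 2 fell (14.3%) and 11 were not called, with a median log2 fold change of 0.16 against 0.008 for all genes. Nppb, which encodes the natriuretic peptide BNP, fell from 64.5, 108.6, 108.3, 61.7 and 71.6 CPM to 35.7, 24.8, 29.9, 46.0 and 18.3 CPM (log2 -1.43 ± 0.24), and Rcan1, a target and inhibitor of calcineurin, from 137 ± 19.1 to 67.0 ± 6.28 CPM (log2 -1.04 ± 0.13). Uchl1, a deubiquitinase gene, rose from 9.15 ± 1.18 to 12.4 ± 2.27 CPM, a call lost without replicate 5 of ZT0 or 4 of ZT12. Ankrd1, a stretch-responsive gene, stood at 774.8 ± 209.9 and 1139 ± 181 CPM (log2 0.56 ± 0.20, adjusted p 0.0631) and was called in the GRflox libraries alone (adjusted p 0.0148), without replicate 5 of ZT0 (0.0141) and without replicate 1 of CardioGRKO ZT0 (0.0442).

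Electrical and adrenergic genes differed in both directions. Of 44 ion channel and connexin genes, 9 rose (20.5%, against 8.13% of all genes) and 4 fell (9.1%, against 9.17%). Gja1, the main gap junction protein of the ventricle, read 862, 882, 866, 915 and 864 CPM at ZT0 and 475, 598, 422, 468 and 526 CPM at ZT12 (log2 -0.82 ± 0.06), so that the lowest morning library was well above the highest evening one. Kcnh2, the channel of the rapid delayed rectifier current, rose from 125, 111, 117, 119 and 106 CPM to 156, 155, 197, 167 and 158 CPM (log2 0.53 ± 0.07). The potassium channel subunit gene Kcne1 fell (5.26 ± 1.43 to 2.90 ± 0.58 CPM). Of 25 adrenergic and cAMP genes, 6 fell (24.0%) and 2 rose (8.0%). Adra1b, an alpha-1 adrenergic receptor, fell from 70.5, 64.7, 58.8, 70.5 and 57.0 CPM to 37.7, 41.3, 37.2, 35.9 and 46.6 CPM (log2 -0.69 ± 0.08), the receptor kinase gene Grk5 from 39.6 ± 3.24 to 26.4 ± 1.96 CPM, and the phosphodiesterase gene Pde3a from 117 ± 8.59 to 83.5 ± 6.01 CPM. In calcium handling 4 of 27 fell (14.8%) and 2 rose (7.4%); the release channel gene Ryr2 rose from 2637 ± 247 to 3081 ± 146 CPM, with 1 morning library at 3068 among the evening values.

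**Figure D4:**
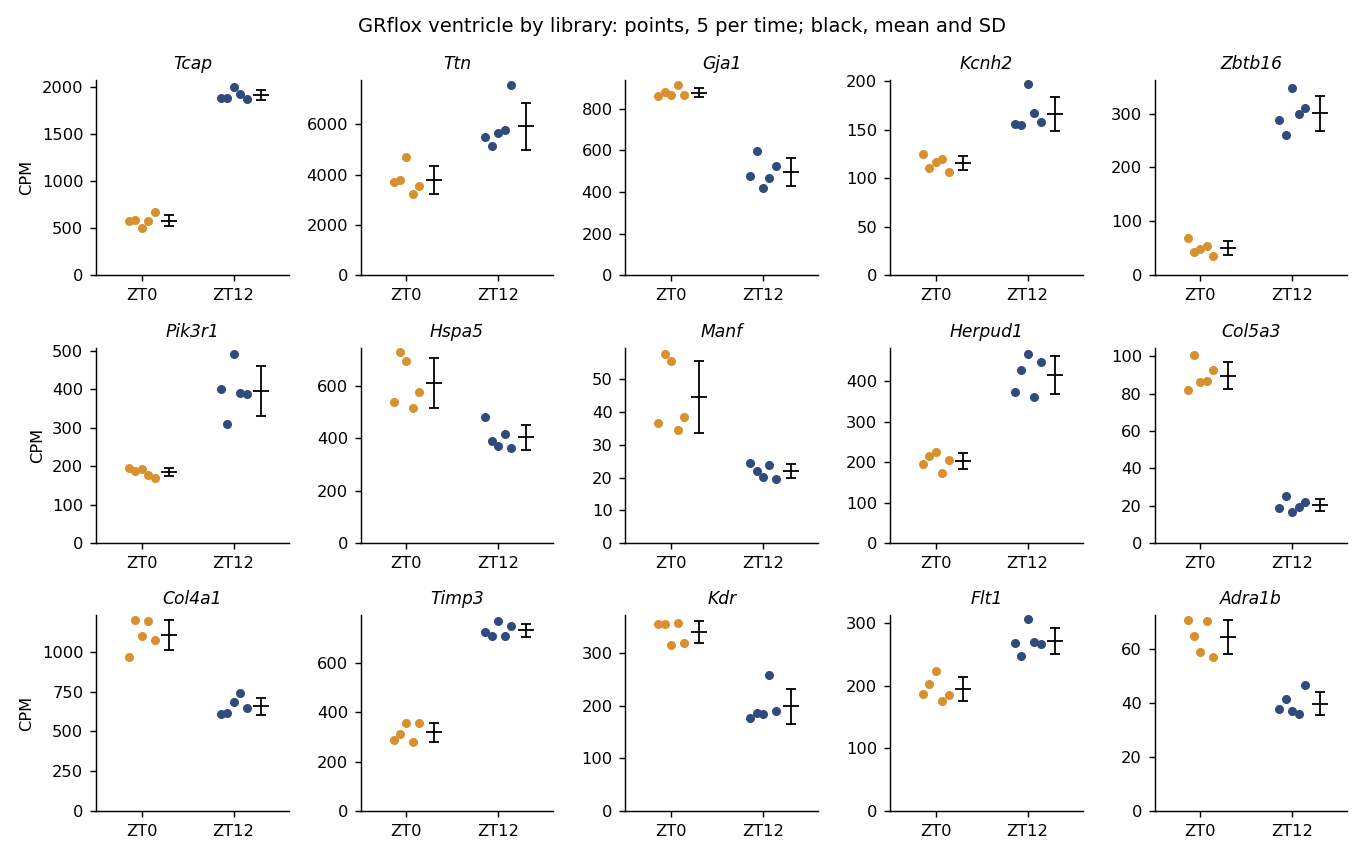
CPM by library on linear axes from 0 for 15 genes, 5 ZT0 (orange) and 5 ZT12 (blue) points each, with the mean and SD in black. The points of the 2 times do not overlap in any panel; Hspa5 and Manf show 2 high morning libraries, and Ttn and Kdr 1 high evening library each.

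Of 38 genes of insulin, PI3-kinase and FOXO signalling, 9 rose (23.7%, against 8.13% of all genes) and 5 fell (13.2%, against 9.17%). Foxo3, a transcription factor held back by insulin signalling, read 59.3, 59.4, 53.2, 53.8 and 53.5 CPM and then 96.3, 96.1, 124.5, 93.4 and 109.7 CPM (log2 0.90 ± 0.07), and its target Sesn1, an inhibitor of mTORC1, rose from 102 ± 11.8 to 166 ± 14.4 CPM. Irs1, the insulin receptor substrate, fell from 81.5 ± 8.80 to 52.0 ± 9.82 CPM (log2 -0.64 ± 0.11). Of 34 autophagy and lysosome genes, 7 rose (20.6%) and none fell, led by the cargo receptor gene Sqstm1 (353 ± 15.1 to 474 ± 33.3 CPM), the initiating kinase gene Ulk1 (log2 0.38 ± 0.07) and Gabarapl1 (log2 0.31 ± 0.06). Of 31 antioxidant genes, 8 rose (25.8%) and none fell, with Gsta3 (log2 0.97 ± 0.11), Gclm (log2 0.57 ± 0.10) and their regulator Nfe2l2 (log2 0.35 ± 0.06) in front. Of 28 proteasome genes, 6 rose (21.4%) and none fell, all by small amounts (log2 0.12 to 0.27), and the count fell to 3 without replicate 5 of ZT0 and to 2 without replicate 5 of ZT12. The cell cycle kinase gene Wee1, a known clock target, rose from 13.5 ± 1.75 to 31.1 ± 2.94 CPM (log2 1.21 ± 0.09). Of 29 cell cycle genes, Wee1 among them, 2 rose (6.9%, against 8.13% of all genes), 1 fell (3.4%, against 9.17%) and 26 did not pass the test.

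Lipid storage genes moved both ways, and few genes of the respiratory chain and TCA cycle were called. Of 27 lipid droplet genes, 8 rose (29.6%, against 8.13% of all genes) and 4 fell (14.8%, against 9.17%): Dgat2, which makes triglyceride, rose from 326 ± 6.72 to 493 ± 53.0 CPM (log2 0.60 ± 0.08) and Plin4 by 0.43 ± 0.08, while Plin5, which ties droplets to mitochondria, fell by 0.49 ± 0.07 on the log2 scale. The count of 8 became 5 without replicate 1 or 2 of ZT0 or replicate 3 of ZT12. Of 31 cholesterol and fatty acid synthesis genes, 7 fell (22.6%) and 2 rose (6.5%) (4 fell without replicate 5 of ZT0). Of 24 TGF-beta family genes 7 rose (29.2%) and 4 fell (16.7%), and the 7 became 4 without replicate 1 of ZT0 or replicate 2 of ZT12. Of 37 genes of glycolysis, glycogen and pyruvate oxidation, 6 rose (16.2%, against 8.13% of all genes) and 1 fell (2.7%, against 9.17%). The glucose transporter gene Slc2a1 rose from 16.8 ± 1.85 to 26.7 ± 3.04 CPM (log2 0.68 ± 0.09) and Slc2a4, the insulin-sensitive one, by 0.19 ± 0.04. By contrast, 1 of 30 respiratory chain genes, 1 of 19 TCA cycle genes, 1 of 24 genes of branched-chain amino acid breakdown, 1 of 32 cytosolic ribosomal protein genes and 1 of 27 mitochondrial ribosome genes were called, all higher, below the 17.3% of all genes. Fatty acid uptake and oxidation had 2 higher (6.9%) and 2 lower (6.9%) of 29, shares close to the 8.13% and 9.17% of all genes. In this design a p that misses the threshold leaves small differences undetected: the median SD over the 5 libraries of a time was 0.118 at ZT0 and 0.129 at ZT12 on the log2 scale.

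The called genes with the highest mean CPM ranged widely in the size of their change. Lpl, which frees fatty acids for uptake, stood at 6260 ± 139 and 7000 ± 135 CPM (log2 0.16 ± 0.05, adjusted p 0.0304), and the mitochondrial ADP/ATP carrier gene Slc25a4 at 5942 ± 283 and 6419 ± 189 (log2 0.11 ± 0.04, adjusted p 0.0464). Both lost their call in several of the fits that left out 1 library, Lpl without replicates 1, 3 or 4 of ZT0 or 1, 2 or 3 of ZT12, and Slc25a4 in all but those without replicate 3 of ZT0 or 2 of ZT12. Firmer were the small heat shock protein gene Hspb7 (4216 ± 127 to 5256 ± 374 CPM, log2 0.32 ± 0.06), Clasp1, which stabilizes microtubules (1042 ± 25.4 to 611.8 ± 31.9 CPM, log2 -0.77 ± 0.05), and Lbh (945 ± 90.2 to 707 ± 58.8 CPM, log2 -0.42 ± 0.06).

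The same contrast in CardioGRKO, which shares no library with that in GRflox, was set beside it. A gene whose difference between genotypes was not called may still differ. Across the 14007 genes the day-night log2 fold changes of the genotypes had a Pearson r of 0.69 and a Spearman rho of 0.62, given as a description, because genes do not vary independently. Of the 2423 genes called in GRflox, 2323 (95.9%) had the same sign in CardioGRKO. These genes were picked by their change in GRflox, so this share does not describe all genes tested. The test of the difference itself (interaction term, edgeR) called 26 genes, 0.186% of those tested, with 839 at an unadjusted p under 0.05. In 25 of the 26 the change was smaller in CardioGRKO, and 25 of the 26 were also called in GRflox. The count of 26 fell to 17 without replicate 2 or 4 of GRflox ZT0 or replicate 4 of GRflox ZT12, and to 16 without replicate 1 of CardioGRKO ZT12, and the highest count without 1 library was 33. With DESeq2 it was 60. The header of 1 CardioGRKO library, replicate 1 of ZT0, carries another run number than the other 19, and it was the shallowest, with 5854462 counted reads. Without it 24 genes were called.

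The 10 genes with the smallest p for this difference all changed more in GRflox than in CardioGRKO. Pik3r1, already described, stood in CardioGRKO at 115.9 ± 7.33 CPM at ZT0 and 129.5 ± 12.7 at ZT12 (log2 0.16 ± 0.09), a difference between genotypes of 0.94 ± 0.12 (adjusted p 0.000432). Gja1 stood there at 1091 ± 58.0 and 985 ± 44.1 CPM (log2 -0.15 ± 0.06), so that the fall was 0.67 ± 0.09 deeper in GRflox (adjusted p 0.000529). Lrrc58, Foxo3, Herpud1, Sesn1, Rnf144b and Glul (glutamine synthetase) rose in GRflox by 0.40 to 1.05 on the log2 scale and in CardioGRKO stood at -0.07, 0.21, 0.30, 0.13, 0.10 and 0.41, where Herpud1 and Glul were called as well. Zbtb16 rose in both, by 2.59 ± 0.17 and 1.15 ± 0.17 (difference 1.44 ± 0.24). Fkbp5 rose by 1.76 on the log2 scale in CardioGRKO, against 1.70 in GRflox. All 17 called clock genes had a smaller change in CardioGRKO, a count that in part follows from their having been called in GRflox. For 4 the difference itself passed the test. Dbp rose by 4.37 ± 0.12 in GRflox and 3.01 ± 0.12 in CardioGRKO, where its morning level was higher (16.3 to 23.7 against 8.77 to 10.4 CPM), a difference of 1.36 ± 0.16 (adjusted p 0.000332). The others were Per3 (0.86 ± 0.16), Tef (0.58 ± 0.11) and Arntl (-1.18 ± 0.24, adjusted p 0.0397). The difference of Arntl kept its call in 14 of 27 alternatives, that of Rhobtb1 (0.89 ± 0.17, adjusted p 0.0209) in 23 and that of Leo1 (-0.47 ± 0.10, adjusted p 0.0475) in 6. Without the CardioGRKO library of the other run, Arntl had an adjusted p of 0.0571 and Leo1 of 0.0807, and the other 13 named genes kept their call. Apart from Arntl, Rhobtb1 and Leo1, the named genes with a called difference kept it in all 27. The glucocorticoid-induced list had a median change of 0.70 in GRflox and 0.34 in CardioGRKO with 2 of 30 differences called (Zbtb16 and Pik3r1). For the unfolded protein list the medians were -0.31 and -0.22 with 1 of 24, and for the matrix list -0.22 and -0.11 with 0 of 44. The lists were chosen with earlier results of these data known, so these medians and counts are descriptions.

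**Figure D5:**
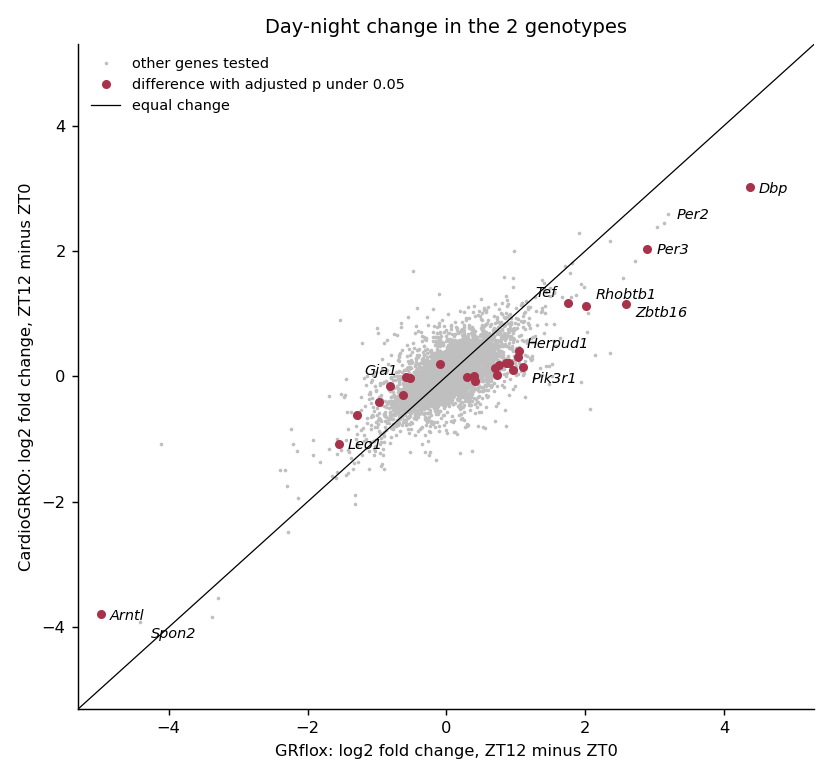
Day-night log2 fold change (ZT12 minus ZT0) in CardioGRKO against that in GRflox for the 14007 genes tested; red points are the 26 genes whose change differed between the genotypes, and the line marks equal change. Most genes follow the line's direction, and 25 of the 26 red points lie closer to 0 in CardioGRKO than in GRflox.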

How the data were processed

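RNA-seq counts of 20 libraries (poly(A)-enriched, paired-end reads of 75 bases, per the labels' protocols) were used as deposited: whole-number counts per gene, not normalized by the authors. The submitters' processing notes list DESeq2 1.38.3, Subread 1.5.1 (featureCounts), STAR 2.5.1 and build mm10; for strand, multi-mapping reads and annotation, the sources used here give no setting. The 24918 lines per table were summed by Entrez identifier to 24059 genes, of which 99.6% matched GRCm38.p6, whose coordinates are given. Genes were tested with edgeR 4.0.16 (R 4.3.3, quasi-likelihood F-test) on group means of all 20 libraries, with TMM scaling, filterByExpr (minimum count 10, total 15) and Benjamini-Hochberg adjustment within a contrast; SE is the size of a log2 fold change over the square root of F. A gene is called at an adjusted p under 0.05. CPM are TMM-scaled. Alternatives were RLE size factors, DESeq2 1.42.0, limma-voom 3.58.1, other filters, the 10 GRflox libraries alone, thinning, a block, and leaving out each library. The code was tested on simulated data. Figures used matplotlib 3.10.9.

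Named are the clock genes and Nr3c1, and the 15 largest rises and 15 largest falls (called, mean log2 CPM of at least 1, no overlap, no provisional names). To these were added the 5 called genes of highest mean CPM each way and the 10 genes of smallest interaction p. Of each list, up to 6 genes of smallest p and 2 not called are named. Fkbp5, Ptgds, Eno1, Coq10b, A530013C23Rik and the genes of the closing observations fall outside this rule. A few genes that the rule would name are not reported here. Members and lists were chosen with earlier results of these data known, so their counts are descriptions. Lists whose counts are given only in the plot are not described further. No pair of replicates looked like 1 library deposited again.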

Additional observations from a re-analysis of the deposited data

Results flagged for a closer look

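In 15 of the 240 groups of 5 libraries behind the 120 genes looked at in this way, 1 library lay further from the other 4 than Dixon's criterion allows, and chance alone flags about 1 in 20 groups. At ZT12 the library that stood apart on the second principal component, replicate 5, had the lowest Arntl (1.045 CPM) and the highest Ttn (7549 CPM). Kdr stood highest in replicate 4 of ZT12 (259 CPM), the same library in which Sesn1 was lowest (141 CPM). Glul was highest (1263 CPM) and Nrp2 lowest (61.64 CPM) in replicate 3, and Myh6 highest (62650 CPM) and Dcn lowest (647.6 CPM) in replicate 2. At ZT0 replicate 1 was lowest in Bhlhe40 (34.96 CPM) and Fbn1 (95.5 CPM), replicate 4 was lowest in Rorb (0.2856 CPM) and stood apart in Csnk1e (68.18 CPM), and Ryr2 was highest in replicate 3 (3068 CPM). Ankrd1 was flagged at both times, highest in replicate 5 of ZT0 (1138 CPM) and in replicate 4 of ZT12 (1451 CPM).

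For 15 of the genes named, the day-night change differed between the genotypes by the test of the difference itself. The log2 difference, GRflox minus CardioGRKO, was 1.44 for Zbtb16, 1.36 for Dbp, 0.94 for Pik3r1, 0.89 for Rhobtb1, 0.86 for Per3, 0.85 for Rnf144b, 0.73 for Herpud1, 0.69 for Foxo3, 0.64 for Glul, 0.58 for Tef, 0.57 for Sesn1 and 0.48 for Lrrc58, all of which rose in GRflox. It was -1.18 for Arntl, -0.67 for Gja1 and -0.47 for Leo1, which fell.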

How the results depend on the processing

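Over 19 alternatives the day-night count stayed between 1931 (lowest of the fits without 1 GRflox library, which gave 1931 to 2252) and 2527 (DESeq2), and 1549 genes were called in the fit reported and in each of the 10 fits without 1 GRflox library. None of the 305 genes looked at reversed its direction, and 37 of the 210 called lost their call under some alternative, while 12 others were called only under an alternative. Of the counts the report leads with, those that moved by over 1.5 times did so when 1 library was left out: 2 to 6 proteasome genes higher, 5 to 8 lipid droplet genes higher, 4 to 8 cholesterol and fatty acid synthesis genes lower, 4 to 7 TGF-beta genes higher, and 16 to 33 genes whose change differed between genotypes. DESeq2 called 60 of the last kind. The cause was not tested. The labels do not say whether the replicate numbers pair the libraries. The deviations of same-numbered GRflox libraries correlated at -0.061 to 0.144, and only replicate 3 of ZT12 correlated best with its own number. Such correlations cannot show whether the numbers mark a pairing. With the replicate block 1180 genes were called higher and 1333 lower, and 38 differed between genotypes. Small changes of genes with few reads could not be detected at these depths.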

Other observations

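Some genes varied widely within a time. Among genes with a mean of at least 10 CPM (8705 at ZT0 and 8726 at ZT12, with a median SD of 0.085 and 0.096 on the log2 scale), the atrial myosin light chain genes Myl7 and Myl4 had the largest SD at both times. Myl7 read 18.7, 4.83, 40.5, 2.36 and 13.1 CPM at ZT0 and 60.5, 16.3, 12.3, 34.1 and 0.196 CPM at ZT12, and Myl4 ran from 3.36 to 54.1 and from 1.76 to 81.1 CPM. Replicate 5 of ZT12, with the lowest level of both, was also lowest for Dkk3 (2.68 CPM, against 15.7 to 28.4 in the other 4) and Fmod (4.38 against 14.1 to 26.9). Cyp26b1, which degrades retinoic acid, read between 3.41 and 60.3 CPM at ZT0 and between 4.68 and 25.0 at ZT12. Nr4a1, an immediate early gene, ran from 19.5 to 64.7 CPM at ZT0 and from 26.7 to 169.5 at ZT12, overlapping, with a log2 fold change of 1.12 ± 0.50 (edgeR, adjusted p 0.131). None of these 6 genes passed the day-night test.

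Some genes that did pass it shared a pattern among the morning libraries. Replicates 1 and 4 of ZT0 had the lowest values in Per1, Cdkn1a, Manf and Nppb, with 31.0 and 30.1 CPM in Per1 against 71.3 to 102.8 in the other 3, and 36.9 and 35.7 CPM in Cdkn1a against 58.7 to 94.1. These genes were picked after their values were seen, and the cause was not tested.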
